A study of Saccharomyces cerevisiae with 22 samples.

Results

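Hsf1-aa cells harvested before any rapamycin were compared with WT-aa cells harvested before any rapamycin, on 2 arrays of each strain. These 4 arrays, of 22 in the series, were picked by the strain and time in their labels, and no measured value entered the choice. Hsf1-aa is the anchor-away strain in which the transcription factor Hsf1 carries an FRB-yEGFP tag. WT-aa is its parent, which lacks the tag. Both belong to the By4742-aa background of budding yeast, mating type alpha, and share tor1-1, a deletion of FPR1, a fusion of RPL13A to FKBP12 carrying NAT, a MET15 gene, and the markers his3-1, leu2, ura3 and lys2. The labels do not say how the tag was put in, which drug or nutrient marker came with it, or whether Hsf1-aa is 1 clone. Cells of both strains had grown in synthetic complete medium with 2% glucose. For the last 6 min they were fed 4-thiouracil (4tU) at 5 mM, so that RNA made in that window could be told from older RNA. The poly(A) RNA that had taken up 4tU was amplified and hybridised against a pool of the same kind of RNA from untreated WT-aa cells. The series text speaks of 2 independent cultures for each group. The titles of letters a and b, however, carry one running number, whose meaning is not given. The p-values therefore measure a spread between arrays, taken over the 20 arrays of the slow rapamycin course and not the 4 alone. The comparison asks how the tagged strain differed from its parent while Hsf1 was still free to work.

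Hsf1 is a DNA-binding activator that recognises heat shock elements and keeps chaperone genes, such as those of Hsp70 and Hsp90, transcribed in growing yeast as well as after heat. In the anchor-away method an FRB-tagged nuclear protein is joined by rapamycin to an FKBP12-tagged ribosomal protein, which carries it out of the nucleus. The tor1-1 allele and the loss of Fpr1 spare the cells the usual response to rapamycin. Before rapamycin the tag is present but the tether is not engaged, so 0 min is the strain's own starting point.

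Each value is log2 of the sample over the pool, so 0 stands for the level in the pool. Letter a had the sample in Cy3 and letter b in Cy5, in both strains. Between 6329 and 6351 features were detected on the 4 arrays, and the median sample signal was 26.3 to 30.4 times the local background. The number of arrays limits the precision. Across 6353 features, the letter b arrays of the strains correlated with each other at r = 0.76 and the letter a arrays at -0.04. The pair of Hsf1-aa arrays gave -0.07 and the pair of WT-aa arrays -0.21, so replicates of one strain did not resemble each other over all features. All 4 arrays share a pool and an array design. Arrays of the same letter also share the dye of the sample, while the arrays of one strain had the sample in different dyes. The fit held a term for the letter, and the strain difference is also given within each letter. The 2 within-letter differences correlated at r = 0.21 across the features, which are not replicates, and had the same sign for 3282 of them (51.7%). Their SD was 0.17 in letter a and 0.09 in letter b.

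Strain differences (Hsf1-aa minus WT-aa) are followed by the SE of a limma fit over the 20 arrays of the slow time course, with n = 2 arrays in each group, and by p-values adjusted by Benjamini-Hochberg over all 6353 features. The threshold was an adjusted p of 0.05. Of all features, 8 passed it (0.126%), 4 higher in Hsf1-aa (0.063%) and 4 lower (0.063%), and 106 had an unadjusted p under 0.05 (1.67%). The 8 were HSF1, TIS11, CIT2, FRM2, YCR001W and 3 probes with no gene name here. The count of 8 fell to 4 without Hsf1-aa replicate a, WT-aa replicate a or WT-aa replicate b, and to 5 without Hsf1-aa replicate b. The median strain difference over all features was 0.003, and the median half-width of the 95% interval of a difference was 0.20. When each array was centred on external control RNA in place of loess, the median of all features was -0.19, and SCAB000951 alone passed. List medians given below for external-control centring are therefore to be read beside -0.19, not beside 0.

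**Figure D1:**
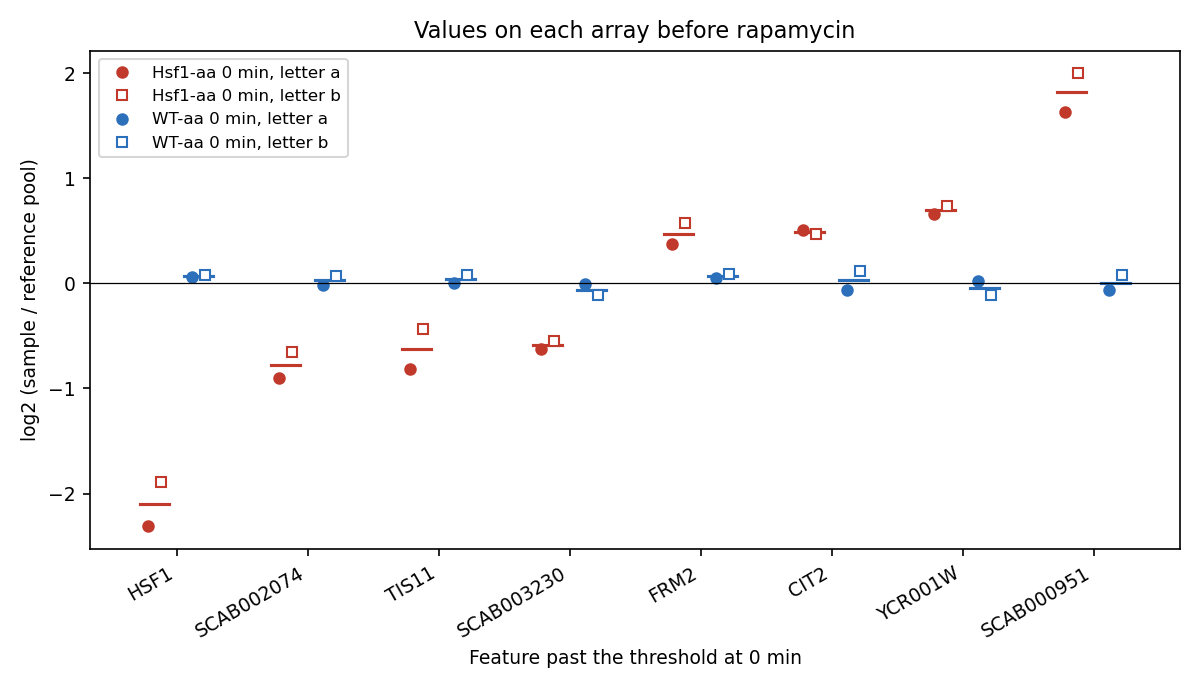
The log2 ratio of sample to pool (vertical axis) is plotted for the 8 features past the threshold, with Hsf1-aa 0 min in red left of WT-aa 0 min in blue. Filled circles are letter a, open squares letter b, and bars the mean of 2 arrays. HSF1 lay at -2.31 and -1.89 in Hsf1-aa against 0.06 and 0.08 in WT-aa, and every WT-aa value lay between -0.11 and 0.12.

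HSF1 (YGL073W, chromosome VII), the gene that carries the tag, read -2.31 and -1.89 in Hsf1-aa (letters a and b) and 0.06 and 0.08 in WT-aa. Both Hsf1-aa arrays lay far below both WT-aa arrays. The difference was -2.17 ± 0.23 (adjusted p = 9.71e-04), a 4.51-fold lower signal in Hsf1-aa, with -2.37 in letter a and -1.97 in letter b. The background-subtracted sample signal of its probe was 217 and 275 units in Hsf1-aa and 1059 and 1723 units in WT-aa. The probe's spots repeated the result, at -2.18 and -2.17. A ratio on bulk RNA cannot tell fewer cells making a transcript from less of it in each cell. Neither could the position of the probe along the gene be used, and whether the tag's presence in the transcript takes part in the lower signal was not tested. Centring on external control RNA gave -2.41 and ended the call (adjusted p = 0.075).

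The probe numbered just before that of HSF1, SCAB002074, has no gene name in the annotation used here. It read -0.90 and -0.65 in Hsf1-aa and -0.01 and 0.08 in WT-aa. The groups did not overlap, and the difference was -0.81 ± 0.07 (adjusted p = 2.61e-04; 1.75-fold lower in Hsf1-aa). Probe numbers on this array follow gene order: of 4497 pairs of named probes with consecutive numbers, 98.4% belonged to genes at most 3 places apart in the RefSeq annotation (assembly R64). The probe on the other side of HSF1 by number, also unnamed, stood at -0.07 ± 0.07. The named genes around HSF1, 5 places to each side in RefSeq order, gave 8 tested features, none past the threshold, with a median of -0.05. They ranged from -0.18 for MNP1, a mitochondrial ribosomal protein, to 0.08 for HNM1, the choline transporter. AFT1, the activator of the iron regulon, is one of them and stood at -0.13 ± 0.09 (adjusted p = 0.998). The same centring gave -1.04 for SCAB002074 and ended its call (adjusted p = 0.826). When 1 replicate was left out, HSF1 and SCAB002074 passed in all 4 cases.

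The genes used to build both strains did not pass the threshold. Of 8 measured (FPR1 was not analysed here), differences ran from -0.16 ± 0.14 for RPL13A, which encodes the FKBP12-tagged ribosomal protein, to 0.11 ± 0.07 for MET17, the gene also called MET15. TOR1, a kinase that senses nutrients, stood at 0.06 ± 0.09. LEU2 and URA3, biosynthetic genes that the labels mark as leu2 and ura3, gave background-subtracted signals of 21.9 to 22.7 and 44.6 to 48.8 units in Hsf1-aa and 22.7 to 30.3 and 50.4 to 55.9 units in WT-aa. Both are dim beside the local background of 42 to 52 units, in both strains. The pathways that need these markers, 25 genes of histidine, leucine, lysine, uracil and methionine synthesis, had a median of 0.03 (-0.17 with external-control centring) and no member past the threshold. The highest of them was LYS20, homocitrate synthase of lysine synthesis, at 0.28 ± 0.13.

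Markers of mating type, which the labels give as alpha, were read in both strains, and levels of different probes are not set against each other. The 4 alpha-cell markers, pheromone and receptor genes such as MF(ALPHA)1 and STE3, summed to 75291 and 94544 signal units on the Hsf1-aa arrays and to 76363 and 96521 on the WT-aa arrays. The 7 a-cell markers, among them MFA1 and STE2, summed to 888 and 1054 units in Hsf1-aa and to 769 and 1110 in WT-aa. All 7 were detected on all 4 arrays, as were 6326 of the 6353 features, so detection does not set them apart. The dimmest of the 7 read 55.7 and 61.9 units in Hsf1-aa and 47.2 and 64.8 in WT-aa, beside a local background of 42 to 52 units. The 6 haploid markers, such as GPA1 and STE4 of the pheromone pathway, summed to 17144 and 19064 units in Hsf1-aa and 15986 and 22039 in WT-aa. No marker passed the threshold, and the medians of the strain difference were 0.07, 0.01 and 0.04. With external-control centring they were -0.15, -0.10 and -0.17, beside -0.19 for all features. The a-cell median also turned below 0 without Hsf1-aa replicate b, and the haploid one without Hsf1-aa replicate a.

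SCAB000951, an unnamed probe, gave the largest rise. It read 1.64 and 2.00 in Hsf1-aa and -0.07 and 0.08 in WT-aa. Both Hsf1-aa arrays stood far above both WT-aa arrays. The difference was 1.81 ± 0.15 (adjusted p = 1.54e-04; 3.50-fold higher in Hsf1-aa). Its background-subtracted signal was 338 and 557 units in Hsf1-aa and 53.8 and 65.4 units in WT-aa, where it was dim. The named probes next to it by number, SEC31 (a vesicle coat protein) and ASF2 (a silencing factor), stood at 0.17 ± 0.19 and 0.03 ± 0.09, and neither passed. This feature kept its call without each replicate in turn.

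YCR001W (chromosome III), an uncharacterised reading frame, read 0.66 and 0.74 in Hsf1-aa and 0.02 and -0.11 in WT-aa. The groups were apart by more than the spread within either. The difference was 0.74 ± 0.09 (adjusted p = 0.00251; 1.67-fold higher in Hsf1-aa). The probe is dim, with 76.3 and 103 background-subtracted units in Hsf1-aa and 27.5 and 28.9 in WT-aa, and the offset of 50 added in the background correction shrinks a ratio of such signals. With an offset of 10, an alternative chosen after seeing the data, the difference was 1.21. The call was lost without Hsf1-aa replicate b (0.68, adjusted p = 0.065) and without WT-aa replicate b (0.68, adjusted p = 0.0762). It was also lost with median centring (0.94, adjusted p = 0.998) and external-control centring (0.72, adjusted p = 0.826). The 10 features within 5 places of YCR001W in RefSeq order had a median of -0.01, which changed sign under 3 of the 18 alternative settings, and CIT2 was the single one to pass.

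The third unnamed probe, SCAB003230, read -0.62 and -0.55 in Hsf1-aa and -0.002 and -0.11 in WT-aa. Both Hsf1-aa arrays lay below both WT-aa arrays. The difference was -0.53 ± 0.08 (adjusted p = 0.0191; 1.44-fold lower in Hsf1-aa). It was lost without Hsf1-aa replicate a (-0.56, adjusted p = 0.165), Hsf1-aa replicate b (-0.49, adjusted p = 0.318) and WT-aa replicate a (-0.39, adjusted p = 0.354), and without the replicate block (adjusted p = 0.52) or under 4 further settings. The named probes beside it, TIM17 and SFH5, stood at 0.05 ± 0.07 and -0.13 ± 0.11.

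TIS11 (YLR136C, chromosome XII) fell in Hsf1-aa. It belongs to the iron regulon, the genes that Aft1 switches on when iron is short. Its product binds AU-rich elements and shortens the life of transcripts whose proteins need iron. Its values were -0.82 and -0.44 in Hsf1-aa and 0.01 and 0.08 in WT-aa. The Hsf1-aa arrays differed from each other more than the WT-aa arrays did, but the groups did not overlap. The difference was -0.67 ± 0.11 (adjusted p = 0.0398; 1.59-fold lower in Hsf1-aa), with -0.83 in letter a and -0.52 in letter b. It did not pass without Hsf1-aa replicate a (-0.52, adjusted p = 0.717), WT-aa replicate a (-0.65, adjusted p = 0.552) and WT-aa replicate b (-0.69, adjusted p = 0.468), and without the replicate block (adjusted p = 0.218) or under 5 further settings.

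All 25 tested members of the iron regulon had a strain difference below 0, with a median of -0.08, where 3097 of the 6353 features lay below 0. TIS11 was the only member past the threshold. The list, like the others here, was chosen with earlier results of these data known, and the 0.2 limit after the values were seen. Its members share the same arrays and are not replicates, so the shares that follow are descriptive. Within both letters, 18 of the 25 lay below 0 (72%, beside 25.5% of all features), and 7 lay at -0.2 or lower in both, as did 0.409% of all features. Those 7 were TIS11, the siderophore transporters ARN1 (-0.37 ± 0.14) and ENB1 (-0.26 ± 0.08), the copper transporter CCC2 (-0.31 ± 0.07), the siderophore-binding wall protein FIT2 (-0.30 ± 0.14), the TIS11 relative CTH1 (-0.27 ± 0.09) and the reductase FRE4 (-0.25 ± 0.06). ARN1 read -0.36 and -0.19 in Hsf1-aa and 0.06 and 0.14 in WT-aa. CCC2 read -0.30 and -0.12 in Hsf1-aa and 0.06 and 0.13 in WT-aa. FRE4 read -0.24 and -0.25 in Hsf1-aa and 0.01 and -0.003 in WT-aa. For these 3 the Hsf1-aa arrays lay below both WT-aa arrays, and their adjusted p-values ran from 0.553 to 0.998. The permease and oxidase of the high-affinity uptake complex, FTR1 and FET3, stood at -0.28 ± 0.12 and -0.17 ± 0.14, while the vacuolar oxidase FET5 stood at -0.01 ± 0.06. For 8 of the 25 the 2 groups did not overlap, all lower in Hsf1-aa, beside 10.8% of all features. The 19 mRNAs that Tis11 and Cth1 are known to act on, listed with TIS11 in mind, had a median of -0.001, which changed sign under 2 of the 18 alternative settings, and no member past the threshold. AFT2, the second iron activator, stood at -0.07 ± 0.12. The median of the iron list was -0.16 without Hsf1-aa replicate b and -0.15 without WT-aa replicate a, and it lay below 0 under all 18 alternative settings.

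CIT2 (YCR005C, chromosome III) rose in Hsf1-aa. It encodes the peroxisomal citrate synthase and is the standard target of the retrograde response, in which Rtg1 and Rtg3 raise genes of glutamate supply when mitochondria fail. Its values were 0.51 and 0.47 in Hsf1-aa and -0.06 and 0.12 in WT-aa. The Hsf1-aa arrays lay closer to each other than to either WT-aa array. The difference was 0.46 ± 0.08 (adjusted p = 0.0398; 1.38-fold higher in Hsf1-aa), with 0.57 in letter a and 0.36 in letter b. The call was lost without Hsf1-aa replicate a (0.36, adjusted p = 0.717), WT-aa replicate a (0.45, adjusted p = 0.552) and WT-aa replicate b (0.47, adjusted p = 0.488). It was also lost without the replicate block (adjusted p = 1), with median centring (0.325), the authors' table (0.12), the 4 arrays alone (0.164) and 4 further settings.

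Among 14 retrograde and early TCA cycle genes the median was 0.06, 9 lay above 0, and CIT2 was the only member past the threshold. With external-control centring the median was -0.13, beside -0.19 for all features. The other 13 did not pass. A difference of at least 0.2 within both letters was seen for 4 of the 14, as for 0.456% of all features: CIT2, DLD3 (D-lactate dehydrogenase), PYC1 (pyruvate carboxylase) and CIT1 (mitochondrial citrate synthase). DLD3 read 0.45 and 0.20 in Hsf1-aa and 0.08 and -0.16 in WT-aa, and PYC1 read 0.37 and 0.18 in Hsf1-aa and 0.07 and -0.11 in WT-aa. CIT1 read 0.29 and 0.25 in Hsf1-aa and -0.01 and 0.03 in WT-aa. Their differences were 0.37 ± 0.12, 0.30 ± 0.08 and 0.25 ± 0.07 (adjusted p = 0.998 each). Enzymes further along, ACO1 (aconitase) and IDH1 (isocitrate dehydrogenase), stood at 0.08 ± 0.05 and 0.09 ± 0.09. The regulators were lower or near 0, with RTG1 at -0.29 ± 0.23, RTG2 at -0.08 ± 0.13 and RTG3 at -0.001 ± 0.06. The 18 peroxisome and glyoxylate genes, which also hold CIT2, had a median of 0.05 (-0.13 with external-control centring) and no other member past the threshold.

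FRM2 (YCL026C-A, chromosome III), a nitroreductase-like protein, rose in Hsf1-aa. Its values were 0.38 and 0.57 in Hsf1-aa and 0.05 and 0.09 in WT-aa, and the groups did not overlap. The difference was 0.41 ± 0.07 (adjusted p = 0.0398; 1.32-fold higher in Hsf1-aa), the smallest of the 8. It was lost without any 1 of the 4 arrays: without Hsf1-aa replicate a (0.46, adjusted p = 0.165), Hsf1-aa replicate b (0.35, adjusted p = 0.977), WT-aa replicate a (0.44, adjusted p = 0.354) and WT-aa replicate b (0.37, adjusted p = 0.838). Without the replicate block (adjusted p = 0.769) and under 7 further settings it did not pass either. Its neighbour and relative HBN1 stood at 0.13 ± 0.13.

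FRM2 belongs to a list of 21 genes of the oxidative stress response driven by Yap1, a factor that raises genes of thiol and glutathione chemistry. Their median was 0.16, the highest of the 32 lists. With external-control centring it was -0.06, beside -0.19 for all features. Of the 21, 17 lay above 0 (81%, beside 51.3% of all features), while FRM2 alone passed the threshold. In 15 of the 21 (71.4%) the difference was above 0 within both letters, as in 26.2% of all features. A difference of at least 0.2 within both was seen in 6 (28.6%, beside 0.456% of all features), and 11 had groups that did not overlap, all higher in Hsf1-aa (52.4%, beside 10.4% of all features). As with the iron list, these shares describe members picked with earlier results of these data known, not replicates. SRX1, sulfiredoxin, read 0.79 and 0.12 in Hsf1-aa and 0.002 and -0.23 in WT-aa. Its Hsf1-aa arrays lay far apart, though both above WT-aa, and the difference of 0.57 ± 0.19 did not pass (adjusted p = 0.998). OYE3, an NADPH oxidoreductase, read 0.52 and 0.49 in Hsf1-aa and 0.16 and -0.06 in WT-aa. Its difference was 0.46 ± 0.11 (adjusted p = 0.547; 95% interval 0.23 to 0.68). The remaining 3 were GLR1, glutathione reductase (0.31 ± 0.10), TRX2, a thioredoxin (0.28 ± 0.12), and YCF1, a vacuolar pump for glutathione conjugates (0.23 ± 0.11). The peroxiredoxins TSA1 and AHP1 stood at -0.06 ± 0.13 and -0.04 ± 0.15, and YAP1 itself at 0.05 ± 0.07. 

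**Figure D2:**
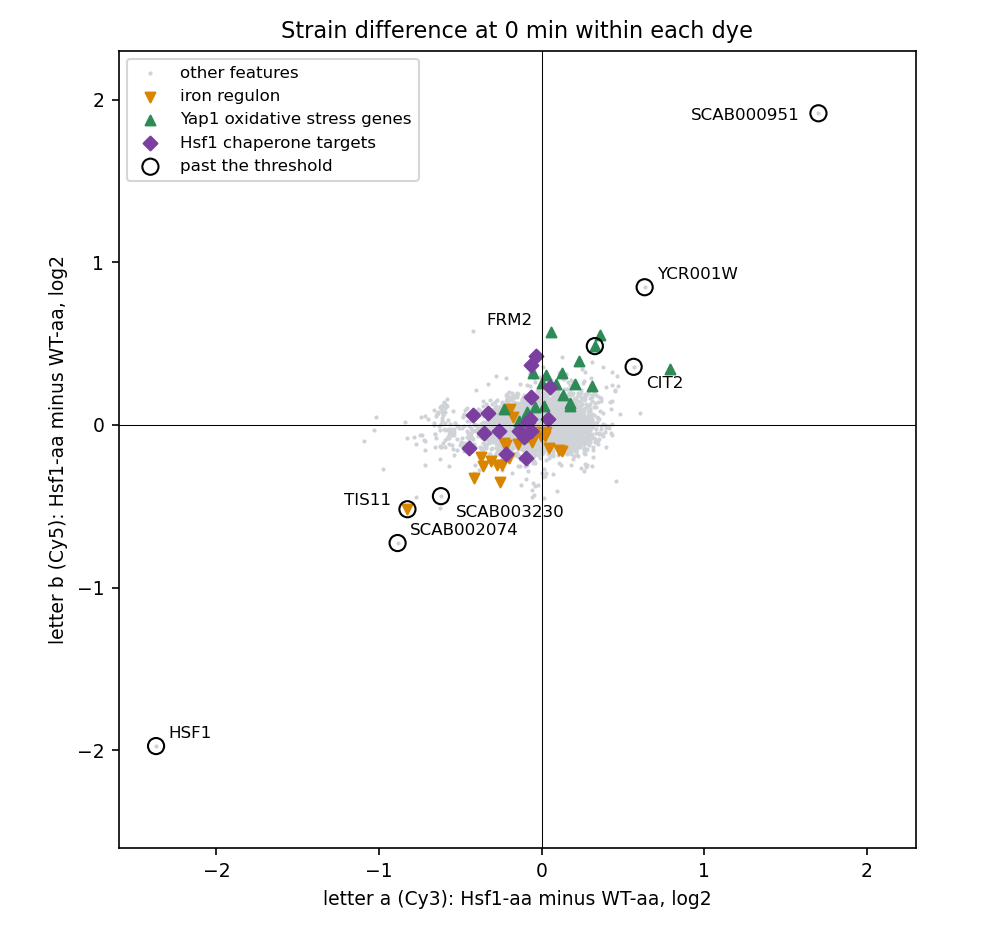
The strain difference (Hsf1-aa minus WT-aa, log2) in letter b is plotted against that in letter a for all 6353 features (grey), with the 8 features past the threshold circled. HSF1 stands alone at the lower left and SCAB000951 at the upper right, the iron regulon (orange) lies mostly lower left of the centre, and the Yap1 genes (green) mostly upper right.

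The Hsf1 chaperone targets, genes known to need Hsf1 for their transcription, had no member past the threshold before rapamycin. Of 17 tested, 12 lay below 0 and 5 above, with a median of -0.09, and none moved by 0.2 or more within both letters. Their median was -0.10 in letter a and 0.02 in letter b, and 0.003 without WT-aa replicate a. Of the 17, 6 lay lower in Hsf1-aa with groups that did not overlap (beside 10.8% of all features), and 2 lay higher (beside 10.4%). The Hsp90 genes HSP82 and HSC82 stood at -0.03 ± 0.15 and 0.04 ± 0.09. SSA1, a cytosolic Hsp70, read -0.19 and 0.08 in Hsf1-aa and -0.16 and -0.34 in WT-aa, a difference of 0.19 ± 0.23 (95% interval -0.30 to 0.68). Its letters gave -0.04 (a) and 0.42 (b). The probe was very bright, with pool signals of 61332 and 64785 units on the letter a arrays of Hsf1-aa and WT-aa. The disaggregase HSP104 stood at 0.15 ± 0.18 and the J-domain protein SIS1 at 0.14 ± 0.09. At the low end were YDJ1, another J-domain protein, at -0.30 ± 0.23 (95% interval -0.80 to 0.21), CPR6, an Hsp90-associated cyclophilin, at -0.20 ± 0.11, and APJ1, a J-domain protein, at -0.20 ± 0.09. BTN2, a sorting factor for misfolded proteins, stood at -0.05 ± 0.09. At 15, 30, 60 and 90 min of rapamycin the same list had medians of -0.32, -0.76, -1.69 and -2.13.

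In the list of 16 other genes that heat shock induces, no member passed, and the median was -0.07. The lowest was TIP1, a cell wall mannoprotein, which read -0.59 and -0.24 in Hsf1-aa and 0.03 and 0.28 in WT-aa. Its difference was -0.57 ± 0.10 (adjusted p = 0.0786), and it passed under 5 of the 18 alternative settings. HSP30, a plasma membrane stress protein, stood at -0.31 ± 0.11 and the Hsp110 gene SSE2 at -0.26 ± 0.12. The mitochondrial chaperonin genes HSP60 and HSP10 stood at -0.30 ± 0.12 and -0.26 ± 0.10. HSP10 lay at -0.24 in letter a and -0.28 in letter b, and HSP60 at -0.49 and -0.11. SSC1, the mitochondrial Hsp70, stood at 0.08 ± 0.06, and the 9 matrix chaperones had a median of 0.08 (-0.14 with external-control centring). Of the 9, 2 lay lower in Hsf1-aa with groups that did not overlap (beside 10.8% of all features), and 4 lay higher (beside 10.4%). Ribosome-associated chaperones and CCT subunits had medians of 0.04 and 0.05 (-0.17 each with external-control centring), and genes of folding in the endoplasmic reticulum one of -0.03. The ribosome-associated median was -0.03 without Hsf1-aa replicate b and -2e-04 without WT-aa replicate a, and the endoplasmic reticulum median was 0.01 without Hsf1-aa replicate a, 0.03 without WT-aa replicate b and 0.01 with the first spot of each probe. Factors related to Hsf1 or to stress, such as SKN7 (-0.15 ± 0.16), MSN2 (-0.02 ± 0.07) and RPN4 (-0.11 ± 0.07), did not pass, and their median was -0.04.

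Among 20 genes of the Msn2 and Msn4 stress response, 15 lay above 0 (beside 51.3% of all features) and none passed. Their median was 0.11 (-0.08 with external-control centring, beside -0.19 for all features). Of the 20, 9 lay higher in Hsf1-aa with groups that did not overlap (beside 10.4% of all features), and 3 lay lower (beside 10.8%). GPH1, glycogen phosphorylase, was the highest at 0.31 ± 0.17 and YGP1, a secreted glycoprotein, the lowest at -0.30 ± 0.13. The phosphate regulon (15 tested) had a median of 0.10 with 11 above 0, and PHM7 was its highest at 0.28. With external-control centring its median was -0.10, again beside -0.19 for all features. All 5 biotin genes lay below 0, from -0.25 ± 0.07 for BIO3, an enzyme of biotin synthesis, to -0.10 ± 0.06 for the transporter VHT1. In letter a, however, BIO2 and BIO4 stood at 0.01 and 0.005, so for these the sign rested on letter b. Ergosterol genes had a median of -0.03, with 18 of 23 below 0 (0.01 without Hsf1-aa replicate a), and ERG3, a desaturase, was the lowest at -0.27. The medians of cytosolic ribosomal protein genes (126 tested), glycolysis genes and proteasome genes lay at 0.002, 0.004 and -0.004, and each changed sign under at least 3 of the 18 alternative settings. Drug resistance genes of Pdr1 (0.02), hexose transporters (0.01) and the zinc regulon (0.03) also had medians close to that of all features. So did copper genes (0.03), histone genes (0.01) and mitochondrial ribosomal protein genes (0.02). Each of these medians changed sign under 2 to 4 of the 18 alternative settings. External-control centring, with all features at -0.19, was among those settings. None of the lists in this paragraph had a member past the threshold.

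**Figure D3:**
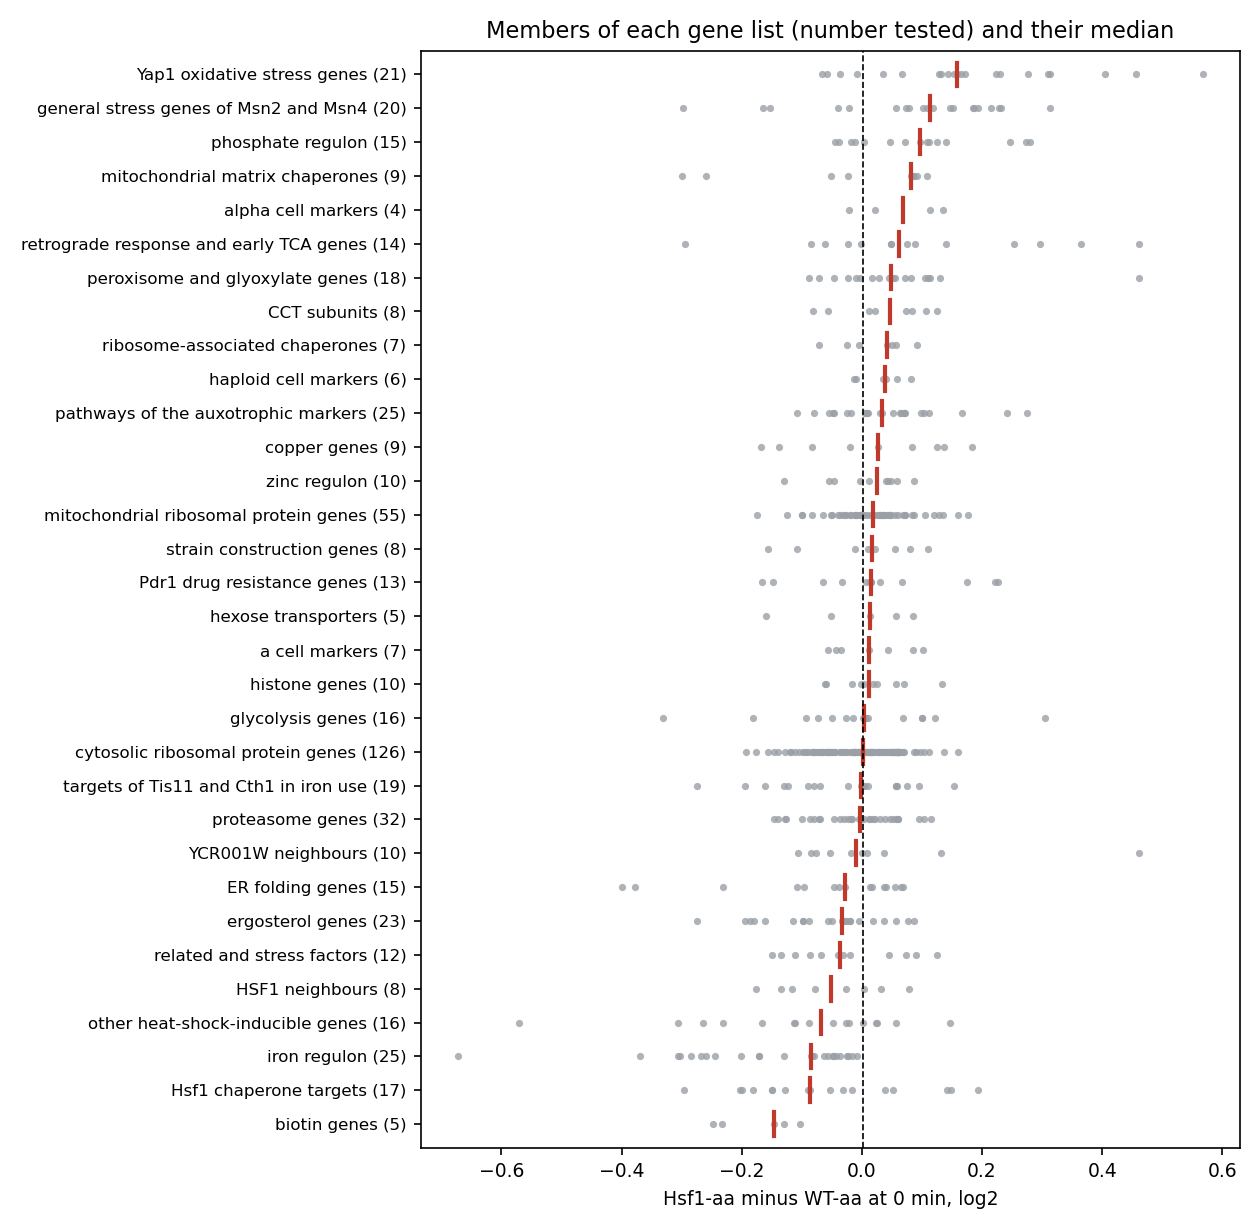
The strain difference at 0 min (Hsf1-aa minus WT-aa, log2) of each list member is shown as a grey point, with the list median as a red bar and the median of all features as a dashed line. Numbers in parentheses are members tested. Medians run from -0.15 for 5 biotin genes to 0.16 for 21 Yap1 genes.

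After the 5 named calls, the named features with the smallest unadjusted p were also examined, 10 in each direction, and none passed. On the higher side stood OYE3, PYC1, CIT1, the mitochondrial superoxide dismutase SOD2 (0.30 ± 0.08), the alcohol dehydrogenase ADH6 (0.26), the glutathione transferase ECM4 (0.30 ± 0.08), the riboflavin enzyme RIB4 (0.33 ± 0.10), the pyrimidine enzyme URA4 (0.24), YLR460C and YOR008C-A. On the lower side, after TIP1, CCC2 and FRE4, came OPI10 (-0.35 ± 0.09), the plasma membrane protein YRO2 (-0.61 ± 0.19), the glycolytic enzyme TDH2 (-0.33 ± 0.10), BIO3, ENB1, the aquaporin AQY2 (-0.23) and the vacuolar transporter VMR1 (-0.24). YRO2 read -0.68 and -0.48 in Hsf1-aa and 0.09 and -0.04 in WT-aa. OPI10 read -0.39 and -0.33 in Hsf1-aa and 0.03 and -0.04 in WT-aa. In both genes the Hsf1-aa arrays lay below both WT-aa arrays. The probe of TDH2 was very bright, with pool signals of 60911 and 57543 units on the letter a arrays of Hsf1-aa and WT-aa.

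A difference of at least 0.2 in the same direction within both letters, a limit set after the values were seen, held for 29 features higher in Hsf1-aa (0.456%), 25 of them named, and for 26 lower (0.409%), 23 of them named. Not yet described on the higher side were the following. GSY1, glycogen synthase, was at 0.38 ± 0.16, MPC3, a mitochondrial pyruvate carrier, at 0.38 ± 0.13, and GLK1, glucokinase, at 0.30 ± 0.15. GSY1 read 0.45 and 0.27 in Hsf1-aa and -0.01 and -0.04 in WT-aa. TPO4, a polyamine transporter (0.35 ± 0.16), APE1, a vacuolar aminopeptidase (0.35 ± 0.12), SOR2, a sorbitol dehydrogenase (0.33 ± 0.12), the thioredoxin TRX1 (0.26 ± 0.21), AIF1 (0.26 ± 0.09) and LSC2, a subunit of succinyl-CoA ligase (0.23 ± 0.11), were also among them. On the lower side, YJR154W (-0.62 ± 0.47), the regulator of superficial growth SFG1 (-0.48 ± 0.24), the subtelomeric reading frame YJL225C (-0.42 ± 0.28), YIR042C (-0.37 ± 0.18), FSH1 (-0.33 ± 0.12), the acetyltransferase ATF2 (-0.30 ± 0.10) and the histone chaperone ASF1 (-0.23 ± 0.26) had not been described. The SE of YJR154W was the widest of them, and in it the letters gave -0.98 and -0.27. None of these genes passed the threshold (adjusted p = 0.998 each).

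Of the 4 features that passed higher in Hsf1-aa, SCAB000951 has no chromosome assigned here. The probes next to it by number are those of SEC31 (YDL195W) and ASF2 (YDL197C), genes of chromosome IV. The other 3, YCR001W, CIT2 and FRM2, all lie on chromosome III, which holds 143 of the 5293 named features tested. Over those 143 features the median difference was 0.01, and 81 lay above 0. Medians of the other nuclear chromosomes ran from -0.01 (chromosome V) to 0.03 (chromosome I), and the 19 mitochondrially encoded features had one of -0.06.

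The pool, made from untreated WT-aa cells, gave a second control, and the comparison with it uses the same Hsf1-aa arrays as the one above. Over the pool, 15 features passed in Hsf1-aa (0.236%), 6 higher and 9 lower, against 1 in WT-aa (0.0157%). The genes among them not described so far were HEM3, ADA2 and ARO10. HEM3, an enzyme of heme synthesis, was the one feature of WT-aa, and stood at -0.42 ± 0.05 in Hsf1-aa (adjusted p = 0.00166) and -0.43 ± 0.05 in WT-aa (adjusted p = 0.0101). ADA2, a subunit of SAGA, had -0.52 ± 0.08 in Hsf1-aa, against -0.51 ± 0.08 in WT-aa (adjusted p = 0.169). Both genes were thus below the pool in each strain, and their strain differences were 0.01 ± 0.07 and -0.02 ± 0.12. ARO10, a decarboxylase of amino acid breakdown, read 0.26 and 0.24 in Hsf1-aa and 0.04 and 0.06 in WT-aa. Without Hsf1-aa replicate b the count for Hsf1-aa fell to 7, and without its replicate a to 9. Without either WT-aa array limma called 0 features for WT-aa, with 43 (without replicate a) and 77 (without replicate b) at an unadjusted p under 0.05.

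The strain difference at the later times, from the same fit, was then read for the 8 features. Rapamycin was present in both strains there. The later arrays gave the 0 min test part of its spread and of its letter term, though not its differences. With the 4 arrays of 0 min alone, 6 features passed: HSF1, SCAB000951, SCAB002074, YCR001W, TIS11 and TIP1, but not SCAB003230, CIT2 or FRM2. The direction was the same at all 4 later times for 7 of the 8. Past the threshold in the same direction were 4 at 15 min, 5 at 30 min, 4 at 60 min and 5 at 90 min, where 0.22%, 0.787%, 1.21% and 1.23% of all features passed in either direction. HSF1, SCAB002074, SCAB000951 and SCAB003230 passed at each time, and YCR001W at 30 and 90 min. With external-control centring HSF1 and SCAB002074 passed at none of the 4 later times and SCAB003230 at 90 min alone, while SCAB000951 lost its call at 15 min only, as it did with median centring. YCR001W lost both its later calls with either centring, and the one at 90 min also without the replicate block and with the second spot of each probe. On all 10 Hsf1-aa arrays of the slow course, HSF1 lay between -2.41 and -1.40 (median -1.79), below the range of the 10 WT-aa arrays, -0.04 to 0.17. SCAB000951 lay between 1.08 and 2.04 (median 1.48) in Hsf1-aa and between -0.15 and 0.11 in WT-aa. YCR001W lay between 0.32 and 0.77 (median 0.48) in Hsf1-aa and between -0.11 and 0.04 in WT-aa. For these, SCAB002074 and SCAB003230, the strains did not overlap on any array of the course.

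**Figure D4:**
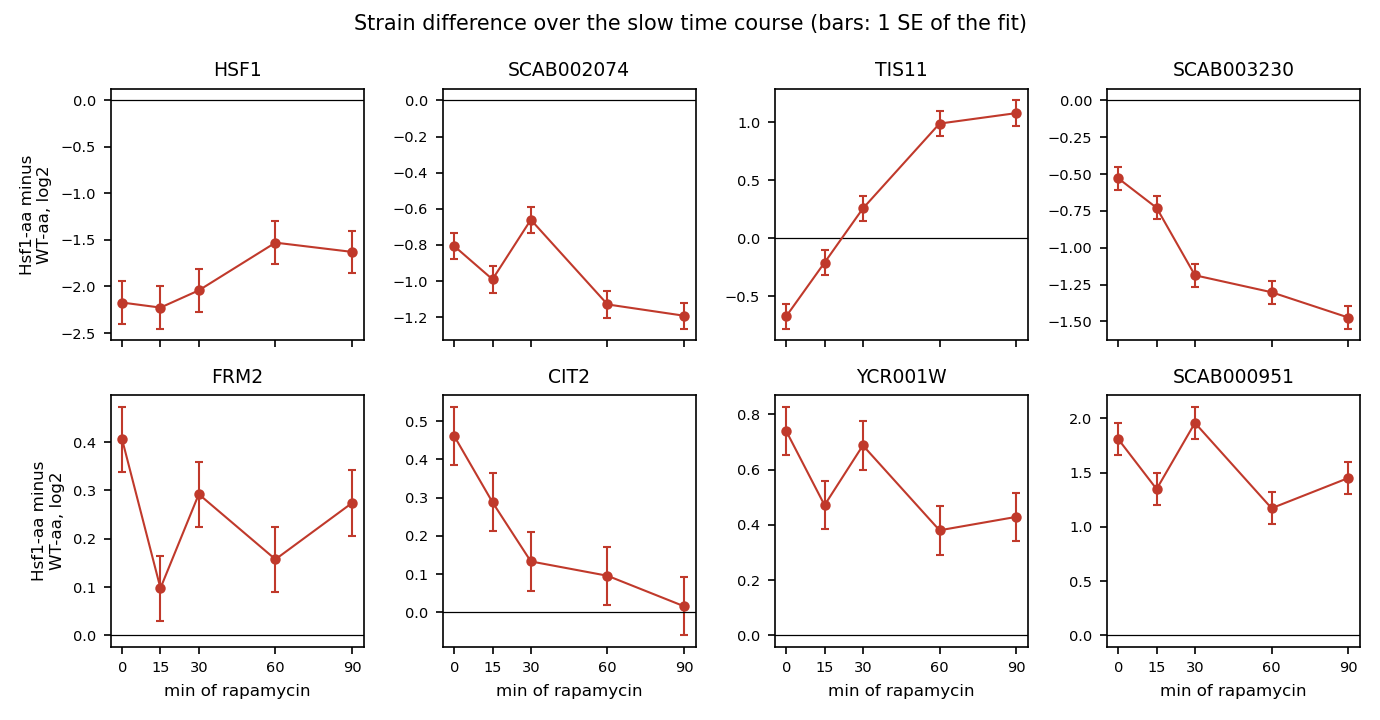
The strain difference (Hsf1-aa minus WT-aa, log2) of the 8 features is plotted against minutes of 0.15 µM rapamycin, with bars of 1 SE of the fit and a vertical scale of its own in each panel. TIS11 crosses 0, with -0.67 at 0 min and 1.08 at 90 min, while HSF1 stays between -2.23 and -1.53.

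The strain differences of TIS11 and SCAB003230 changed with time. Those of CIT2 and FRM2 did not pass at any later time, and their changes from 0 min did not pass either. CIT2 had a strain difference of 0.29, 0.13, 0.10 and 0.02 at 15, 30, 60 and 90 min, none past the threshold. At 15 min both Hsf1-aa arrays still lay above both WT-aa arrays, and from 30 min on the groups overlapped. In both strains CIT2 stood above the pool by then. On the arrays of 15 to 90 min it lay between 0.96 and 1.50 in Hsf1-aa and between 0.71 and 1.28 in WT-aa. FRM2 stood at 0.10, 0.29, 0.16 and 0.27, and none of these passed. At 30, 60 and 90 min both Hsf1-aa arrays of FRM2 still lay above both WT-aa arrays. TIS11 stood at -0.21, 0.26, 0.99 and 1.08, and the values at 60 and 90 min passed, except with external-control centring, in the opposite direction to 0 min. In WT-aa its level at 90 min was -1.28 and -1.18, while in Hsf1-aa it was -0.30 and 0.004. SCAB003230 stood at -0.73, -1.19, -1.30 and -1.47, with levels at 90 min of -1.82 and -1.67 in Hsf1-aa and -0.34 and -0.20 in WT-aa. The median of the iron list, in which 0 of 25 lay above 0 before rapamycin, was -0.13, 0.03, 0.16 and 0.28 at the 4 later times.

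A further pair of arrays, 1 for each strain, came from cells given 7.5 µM rapamycin for 30 min, against a pool of RNA without 4tU, so it has no replicate and no test. There 6 of the 8 features had the direction of 0 min. HSF1 differed by -1.32, SCAB003230 by -0.53, SCAB000951 by 0.32, SCAB002074 by -0.30, TIS11 by -0.11 and FRM2 by 0.01. YCR001W stood at -0.01 and CIT2 at -0.53.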

How the data were processed

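Newly made, 4tU-labelled poly(A) RNA was measured on spotted 2-colour arrays, 20 of the slow rapamycin course (10 groups of 2) and 2 of the standard course. The foreground and local background intensities of each spot are scanner output as deposited by the authors, per the file headers, with no normalisation. A log2 value table was also deposited by the authors and served as an alternative; how it was made is not stated in the labels or headers.

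From the intensities, the background was corrected with normexp (offset 50) and each array was normalised by loess with control spots at weight 0 (limma 3.58.1, R 4.3.3). Loess removes any shift that most genes share. The offset understates ratios of dim probes. Ratios were turned to sample over pool, and the 2 spots of a probe and the probes of a gene were averaged. Of 6388 yeast probes, 5326 had 1 gene symbol in the platform annotation, 0 had several and 1062 had none. Of these symbols 58 were updated through RefSeq and 2 found no match. A feature was tested when its sample signal exceeded the background median by 2 background SD on at least 2 arrays, which kept 6353 of 6373.

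The fit had 10 groups and a term for the letter, which is also the dye, with 9 residual degrees of freedom (12.5 with the prior). Tests were two-sided, with eBayes and Benjamini-Hochberg adjustment. Data were simulated for this comparison over 6353 features, with 200 of them changed and errors drawn independently for each feature and array. There 79.1% of log2 changes of 0.5 and 100% of changes of 1 and 2 were recovered, with 11 false calls of 197. The real comparison gave 8 calls, and its arrays were correlated across features, so these shares do not measure its own recovery. No column of per-sample values was left unmapped.

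Named genes were those past the threshold, the 10 next by p in each direction, and members of 32 lists; 26 list genes were not analysed here. The members and lists were chosen with earlier results of these data known. The 0.2 limit within both letters and the offset of 10 were chosen after seeing the data. The other alternatives changed the normalisation, spots, arrays, model or detection filter, or used the authors' table.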

Additional observations from a re-analysis of the deposited data

Results flagged for a closer look

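For TIS11 and SCAB003230 the strain difference at later times of rapamycin differed from that at 0 min, by a test of the change itself in the same limma fit. The 0 min arrays that picked these features also enter that change, so it is not independent of the choice. TIS11 changed by 0.93 at 30 min (adjusted p = 0.0479), by 1.66 at 60 min (adjusted p = 7.70e-05) and by 1.75 at 90 min (adjusted p = 3.78e-05). The change at 30 min passed under 8 of 16 alternative settings, and those at 60 and 90 min under 16 of 17 each, with external-control centring the exception. SCAB003230 changed by -0.66 at 30 min (adjusted p = 0.0479), by -0.77 at 60 min (adjusted p = 0.0038) and by -0.94 at 90 min (adjusted p = 4.14e-04). These passed under 7 of 16, 15 of 17 and 16 of 17 settings. Over all features, the change from 0 min passed for 0.661% at 60 min and 0.756% at 90 min.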

How the results depend on the processing

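Of 18 alternative settings (17 planned and 1 chosen after seeing the data), none turned the direction of any of the 8 called features. The calls held under 18 settings for SCAB000951, 17 each for HSF1 and SCAB002074, 14 for YCR001W, 10 for SCAB003230, 9 for TIS11, 7 for CIT2 and 6 for FRM2. The count of 8 features became 3 with median centring, 1 with external-control centring, 4 with the trend and robust options of eBayes, 5 with the second spot of each probe, and 4 to 5 when a replicate was left out. Without the replicate block it was 4, with TIS11, SCAB003230, CIT2 and FRM2 not called. The letters are the dye as well as the replicate, and the sources do not say that cultures of the same letter were paired across strains. For HSF1, leaving out a replicate gave -2.41 to -1.94, and external-control centring gave -2.41 and no call. For Hsf1-aa over the pool the count of 15 became 3 with external-control centring, 26 with the authors' table, 24 with the 4 arrays of 0 min alone, 68 with array weights, and 7 to 12 when a replicate was left out. For WT-aa over the pool the count of 1 became 3 with median centring or an offset of 10, 2 without the arrays of 30 min, 5 with array weights, and 0 to 1 when a replicate was left out. It was 0 by limma with external-control centring, the authors' table or the 4 arrays alone, where 713, 143 and 426 features had an unadjusted p under 0.05. Why these settings changed the counts was not tested. With 2 arrays a group, the smallest called difference was 0.41, and signals of LEU2, URA3 and YCR001W near the local background limit their ratios.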
